A study of Mus musculus with 9 samples.

Results

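Chromatin immunoprecipitation with sequencing of Stat5a and Stat5b in mouse CD4+ T cells gave 16634 genomic regions at which the authors' lists held a Stat5b peak after 2 rounds of culture towards Th2 cells and no other Stat5 peak. The regions were found by joining the 6 deposited peak lists of the mm8 build wherever peaks overlapped by at least 1 bp, without the mitochondrial chromosome. A joined region was kept when it overlapped a peak of Stat5b after 2 rounds and no peak of the other 5 lists. These Stat5b-alone regions were 38.0% of the 43766 joined regions and 52.6% of the 31605 regions with a 2-round Stat5b peak. They were 79.2% of the 20994 regions whose peaks all came from 2 rounds, beside 3210 regions with peaks of both factors and 1150 with a Stat5a peak alone. The remaining 11761 regions with a 2-round Stat5b peak also held a peak at 8 h or 13 h.

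Stat5a and Stat5b are closely related transcription factors encoded by neighbouring genes. Both are phosphorylated by Janus kinases below receptors for interleukin-2 and other cytokines, after which they pair, enter the nucleus and bind DNA. In CD4+ T cells the interleukin-2 and Stat5 pathway is known for its part in differentiation to Th2 cells, the helper cells that make interleukin-4.

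Differentiation was followed at 3 stages, 8 h, 13 h and 2 rounds, and each stage has 1 Stat5b, 1 Stat5a and 1 IgG library, 9 in all. IgG is an antibody with no chosen target, so its reads give the background of the method. The sources used here do not give the mouse strain, genotype, age, number of animals or cytokine conditions, and refer to a publication for the protocols. With 1 library a group there was no replicate check, no p-value was computed, and intervals cover counting error only. Reads carried no molecular identifiers and so are not independent molecules.

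Depth ranged from 3130228 reads in Stat5a at 8 h to 9036070 reads in Stat5b at 13 h, and the Stat5b library after 2 rounds had 7656900 reads. Levels were scaled to RPM, the reads in a region per 1000000 reads of the library. The number of distinct starts, by position and strand, was 61.0% to 74.1% of the number of reads in a library. The Stat5a and IgG libraries at 13 h and after 2 rounds mixed 25 bp reads with 38.0% to 77.3% of 24 bp reads, while every Stat5b library held 25 bp reads alone. Of the Stat5b-alone regions, 10 were heaped, meaning that over 50% of at least 20 reads of some library shared 1 start and strand, against 56 of all joined regions. The peak lists chose the regions, so the Stat5a and Stat5b values in them describe the choice and support nothing further.

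The Stat5b-alone regions had widths close to those of joined regions in general and the lowest peaks of the 3 kinds with a 2-round Stat5b peak. Their median width was 498 bp, with 389 bp at the lower and 640 bp at the upper quartile and a full range of 144 to 2604 bp. Regions with peaks of both factors after 2 rounds only had a median width of 608 bp, those with an earlier peak 752 bp, those with a 2-round Stat5a peak alone 266.5 bp, and all joined regions 488 bp. The highest 200 bp window of a region held a median of 1.96 RPM of 2-round Stat5b in Stat5b-alone regions, against 3.004 RPM where both factors had peaks and 3.27 RPM with an earlier peak. Together the Stat5b-alone regions covered 9.13 Mb of the 24.02 Mb in all joined regions, and 16004 of them came from a single peak.

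The Stat5b signal stood out after 2 rounds, and smaller signals above IgG were measured in the other Stat5 libraries. Median Stat5b levels per region were 0.437 RPM at 8 h, 0.775 RPM at 13 h and 2.87 RPM after 2 rounds. Median Stat5a levels were 0.639, 0.602 and 0.903 RPM at the same stages. Median IgG levels were 0.320, 0.399 and 0.346 RPM. The 2-round Stat5b median stood for 22 reads and the 2-round Stat5a median for 6 reads, so a single region held few reads outside the library that chose it. The middle 50% of the regions lay between 2.09 and 4.31 RPM of Stat5b after 2 rounds, and between 0.451 and 1.66 RPM of Stat5a.

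**Figure D1:**
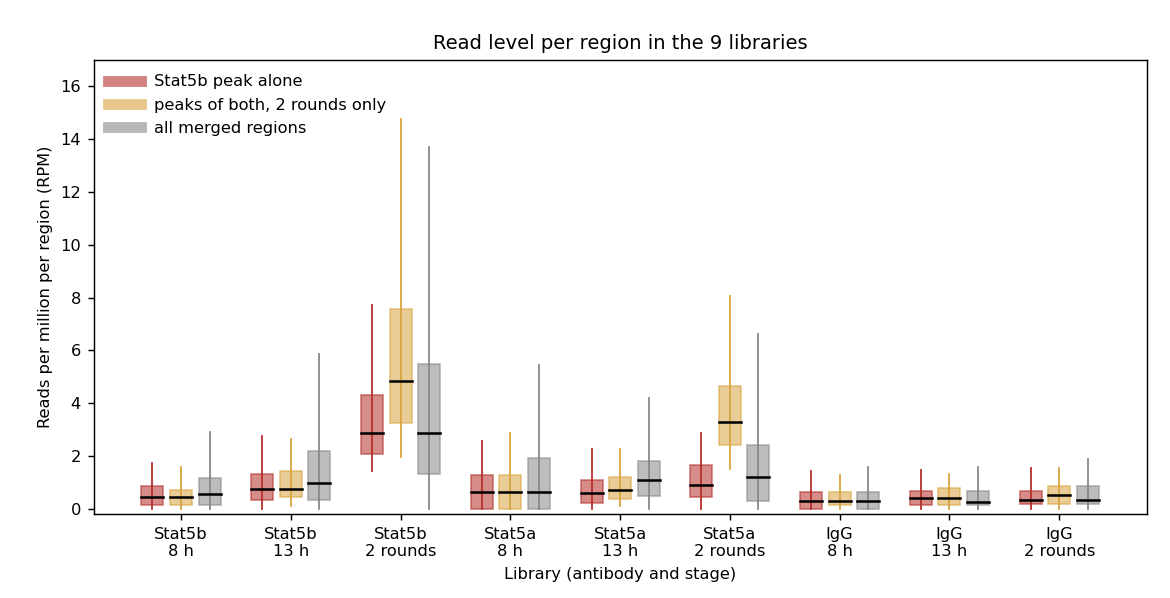
Read levels per region (RPM, linear axis) in the 9 libraries for the 16634 Stat5b-alone regions, the 3210 regions with peaks of both factors after 2 rounds only and all 43766 joined regions; boxes run from the lower to the upper quartile, black lines are medians and thin lines run from the 5th to the 95th percentile. Stat5b after 2 rounds has a median of 2.87 RPM in Stat5b-alone regions, and Stat5a after 2 rounds has medians of 0.903 RPM there and 3.31 RPM where both factors had peaks.

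Summed over the Stat5b-alone regions and divided by their length, the level at 8 h was 1.08 RPM per kb for Stat5b, 1.46 RPM per kb for Stat5a and 0.817 RPM per kb for IgG. At 13 h the levels were 1.80 RPM per kb for Stat5b, 1.46 for Stat5a and 0.874 for IgG. After 2 rounds they were 6.38 RPM per kb for Stat5b, 2.06 for Stat5a and 0.970 for IgG. The 2-round reads were 5.82% of the Stat5b library, 1.89% of the Stat5a library and 0.886% of the IgG library. The highest level thus stood in the library that defined the regions, and all 5 other Stat5 libraries lay above the IgG library of their stage.

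Against IgG of the same stage, summed 2-round Stat5b reads were 6.57-fold higher in the Stat5b-alone regions (95% interval 6.51 to 6.63) and 11.2-fold higher in regions with peaks of both factors. Region by region, the interval of the Stat5b to IgG ratio lay wholly above 2 in 8681 Stat5b-alone regions, or 52.2%, against 46.5% of all joined regions. It lay wholly above 1 in 15450 of them, or 92.9%, against 71.5% of all joined regions. Counting distinct starts only, the share above 2 was 27.6% of Stat5b-alone regions against 32.1% of all joined regions, so their order turned round. With 25 bp reads alone it was 4.17% against 12.1%, again in the turned order. These are the libraries that chose the regions, and nothing is read from those shares.

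Stat5a after 2 rounds had no peak in these regions, yet its summed reads were 2.13-fold above IgG (2.11 to 2.15). In regions with peaks of both factors the same ratio was 6.92 (6.78 to 7.06). The interval lay wholly above 2 in 577 Stat5b-alone regions, or 3.47%, against 13.9% of all joined regions, and wholly above 1 in 3398, or 20.4%, against 32.7%. The rule excluded Stat5a peaks, so low shares were built in. Among 25 bp reads alone the summed ratio was 1.89 (1.86 to 1.92).

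At 13 h, summed Stat5b reads in the Stat5b-alone regions were 2.06-fold above IgG (2.04 to 2.08), and the ratio in regions with peaks of both factors was 2.02 (1.98 to 2.06). With all reads the 2 intervals overlapped. With 25 bp reads alone the ratios were 2.58 (2.54 to 2.61) in Stat5b-alone regions and 2.12 (2.06 to 2.18) where both factors had peaks, and the intervals were apart, so this comparison depended on read length. Intervals lay wholly above 2 in 578 Stat5b-alone regions, or 3.47%, against 17.5% of all joined regions. Stat5a at 13 h was 1.67-fold above IgG (1.65 to 1.68) in Stat5b-alone regions and 1.79-fold (1.76 to 1.83) where both factors had 2-round peaks. With 25 bp reads alone those ratios were 2.29 (2.26 to 2.32) and 2.25 (2.18 to 2.32), in the opposite order and with overlapping intervals. With all reads 288 Stat5b-alone regions, or 1.73%, had intervals wholly above 2, against 13.9% of all joined regions.

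At 8 h the ratios over IgG were 1.33 (1.31 to 1.34) for Stat5b and 1.78 (1.76 to 1.80) for Stat5a in the Stat5b-alone regions. For Stat5b 111 of them, or 0.667%, had intervals wholly above 2, against 2.92% of all joined regions. For Stat5a the count was 430, or 2.59%, against 11.2%. Both stages before 2 rounds therefore showed a summed level over IgG in regions that the authors' lists held for 2 rounds alone, and at 8 h the larger of the 2 ratios was that of Stat5a.

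Compared with Stat5b at 13 h, Stat5b after 2 rounds was 3.54-fold higher over the summed Stat5b-alone regions (3.52 to 3.56) and 6.14-fold higher in regions with peaks of both factors (6.06 to 6.22). Intervals lay wholly above 2 in 6329 Stat5b-alone regions, or 38.0%, against 25.1% of all joined regions, and wholly below 0.5 in 0 of them, against 0.637%. Compared with 8 h the summed ratio was 5.88 (5.83 to 5.93), and 9021 regions, or 54.2%, lay wholly above 2, against 43.4% of all joined regions. For Stat5a the summed ratio of 2 rounds over 13 h was 1.42 (1.41 to 1.43) in Stat5b-alone regions and 4.26 (4.20 to 4.33) where both factors had peaks. The Stat5a intervals lay wholly above 2 in 710 Stat5b-alone regions, or 4.27%, against 7.67% of all joined regions, and wholly below 0.5 in 61, against 3.97%.

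After 2 rounds, Stat5b over Stat5a gave a summed ratio of 3.09 (3.07 to 3.11) in Stat5b-alone regions and 1.62 (1.61 to 1.63) in regions with peaks of both factors. The interval lay wholly above 2 in 4304 Stat5b-alone regions, or 25.9%, against 17.2% of all joined regions, and below 0.5 in 0, against 0.487%. In the remaining Stat5b-alone regions the Stat5b level was not shown to exceed the Stat5a level by more than a factor of 2 at this depth. The antibodies differ, so a ratio of the 2 libraries does not measure relative occupancy.

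IgG has no peak list here, and its comparison between stages depended on read length. With all reads, summed IgG reads after 2 rounds were 1.11-fold those at 13 h in Stat5b-alone regions (1.10 to 1.12), the same ratio to 3 digits as where both factors had peaks (1.08 to 1.14). With 25 bp reads alone the ratio was 1.79 (1.76 to 1.83) in Stat5b-alone regions and 1.17 (1.11 to 1.23) where both factors had peaks. With all reads the interval lay wholly above 2 in 72 Stat5b-alone regions, or 0.433%, against 0.644% of all joined regions.

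Averaged around region centres, every library had a central maximum. Stat5b after 2 rounds reached 5.96 RPM per kb within 250 bp of the centre, against 1.29 RPM per kb at 1 to 2 kb from it, a ratio of 4.61 (4.59 to 4.63). The same ratio of centre to flank was 1.88 for Stat5b and 2.04 for Stat5a at 8 h, 2.16 for Stat5b and 1.96 for Stat5a at 13 h, and 2.38 for Stat5a after 2 rounds. IgG also had a maximum, with ratios of 1.61, 1.58 and 1.44 at 8 h, 13 h and after 2 rounds. All 6 Stat5 ratios exceeded the 3 IgG ratios. The 2-round flanks were themselves higher for Stat5b (1.29 RPM per kb) than for Stat5a (0.852) and IgG (0.622).

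**Figure D2:**
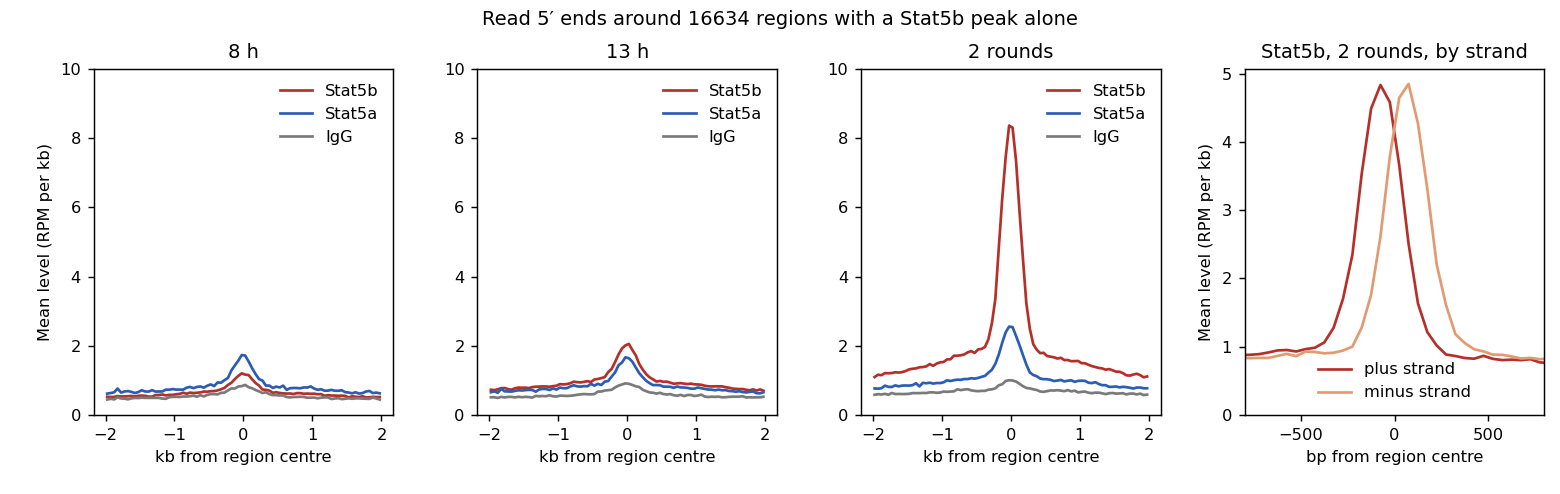
Mean level of read 5′ ends (RPM per kb) against distance from the centre of the 16634 Stat5b-alone regions, for Stat5b, Stat5a and IgG at each stage on a common axis, and for Stat5b after 2 rounds by strand on an axis of its own. Stat5b after 2 rounds averages 5.96 RPM per kb within 250 bp of the centre, and its plus and minus strand reads have medians 133 bp apart.

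Reads of the 2 strands were offset in the manner of sheared fragments around a site. Within 500 bp of the centre, plus strand Stat5b reads after 2 rounds had their median at -71.3 bp and minus strand reads at 61.3 bp, 133 bp apart. In regions with peaks of both factors the distance was also 133 bp. In the Stat5b-alone regions it was 124 bp for 2-round Stat5a. For IgG it was 110 bp at 8 h, 133 bp at 13 h and 115 bp after 2 rounds. An offset of this kind and size was thus not particular to the Stat5b library.

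The weaker a region with a 2-round Stat5b peak was, the more often it was a Stat5b-alone region. Below 2 RPM they were 3978 of 4581 regions (86.8%), and from 2 to 4 RPM 7852 of 11166 (70.3%). From 4 to 8 RPM they were 4106 of 10031 (40.9%) and from 8 to 16 RPM 683 of 4272 (15.99%). At 16 RPM and over they were 15 of 1555 (0.965%), where regions with an earlier peak were 1411. These level limits were chosen after the values had been seen, and the part of read depth in this order was not tested.

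**Figure D3:**
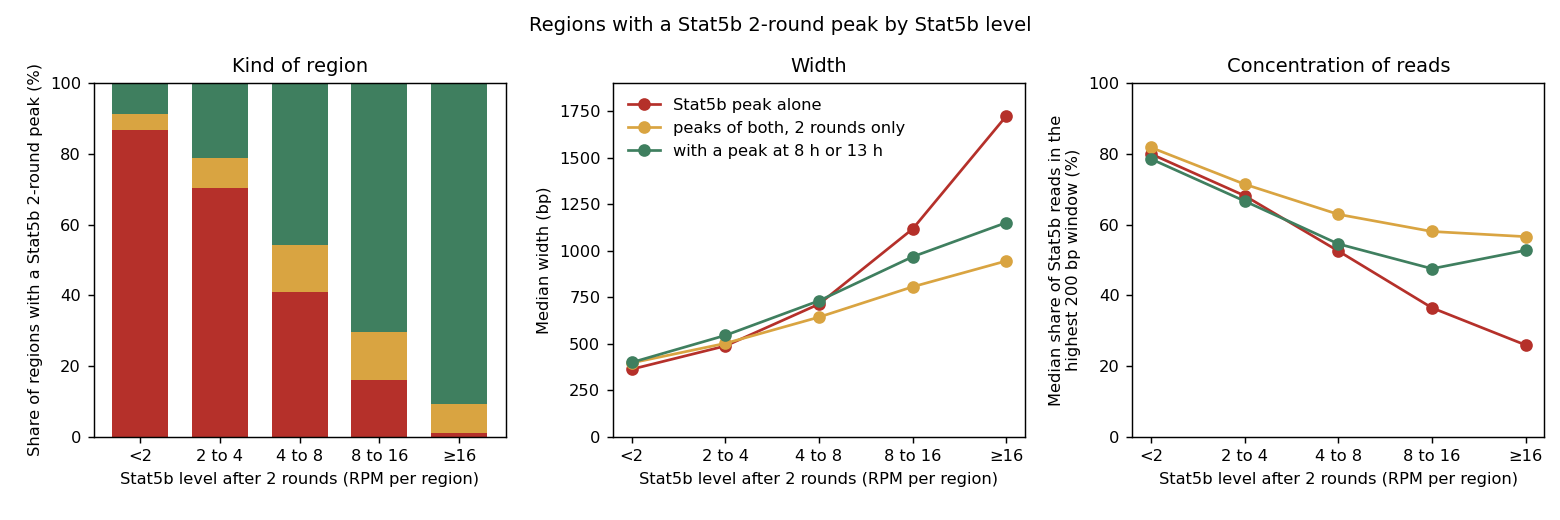
Regions with a 2-round Stat5b peak by Stat5b level (RPM per region): the share of each kind of region (%), the median width (bp) and the median share of Stat5b reads in the highest 200 bp window (%). The Stat5b-alone share is 86.8% below 2 RPM and 0.965% at 16 RPM and over, and at 8 to 16 RPM the Stat5b-alone regions are 1117 bp wide with 36.5% of reads in that window, against 806 bp and 58.1% where both factors had peaks.

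Sorted by reads per region, the Stat5b-alone regions at higher levels were broad rather than tall. From 8 to 16 RPM their median width was 1117 bp, against 806 bp in regions with peaks of both factors and 967.5 bp in regions with an earlier peak. The highest 200 bp window held a median of 36.5% of their Stat5b reads, against 58.1% and 47.5% in those other kinds. The median height of that window was 3.66 RPM in Stat5b-alone regions, against 6.14 RPM where both factors had peaks and 4.96 RPM with an earlier peak. Below 2 RPM the differences were small, with widths of 363, 397 and 399.5 bp and shares of 80%, 81.8% and 78.6% in the same order. Sorted instead by the height of the highest 200 bp window, the Stat5b-alone regions were not the broadest kind. At a height of 4 to 8 RPM the widths were 718, 696 and 814.5 bp in that order. The shares in the window were 62.5%, 65.0% and 56.7%.

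IgG reads were also more plentiful in these broad regions. From 8 to 16 RPM of 2-round Stat5b, median 2-round IgG was 1.38 RPM in Stat5b-alone regions, 0.691 RPM where both factors had peaks and 1.21 RPM with an earlier peak. Median Stat5b at 13 h was 2.77, 1.11 and 4.43 RPM in the same order, and so lay between the other kinds in Stat5b-alone regions. Median 2-round Stat5a was 2.56, 5.12 and 4.06 RPM, lowest in Stat5b-alone regions. The part of width, IgG level or read length in these differences was not tested. Within the Stat5b-alone regions the summed ratio of Stat5a to IgG was 2.91 below 2 RPM, 2.27 from 2 to 4 RPM, 1.97 from 4 to 8 RPM, 1.72 (1.67 to 1.78) from 8 to 16 RPM and 1.27 (1.14 to 1.43) at 16 RPM and over. The last step rested on 3 of its 15 regions, all on chromosome 11 and high in IgG. Without them the ratio was 1.53 (1.26 to 1.85), whose interval overlapped that of the level before. Where both factors had peaks the ratio was 10.9 below 2 RPM, 6.14 from 4 to 8 RPM, and 6.94 and 8.35 at the higher levels. With an earlier peak it was 4.14, 2.73, 3.52 and 5.90 at the same levels. The fall below 8 RPM was thus not particular to Stat5b-alone regions. Over the 16634 regions, which share these libraries, 2-round Stat5b levels ranked with width (Spearman 0.834), with 2-round IgG (0.588), with 2-round Stat5a (0.568) and with Stat5b at 13 h (0.563).

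Read length moved with the levels, in ways that differed between libraries. Within the 2-round IgG library, 25 bp reads gave a 1.41-fold higher level than 24 bp reads in Stat5b-alone regions (1.38 to 1.44), 1.66-fold in those of 8 RPM or more, and 1.01-fold where both factors had peaks. Within the 2-round Stat5a library the ratios were 1.31, 1.68 and 0.917 for the same 3 sets. Among 25 bp reads alone, Stat5b over IgG after 2 rounds was 5.09 (5.01 to 5.17) in Stat5b-alone regions and 11.2 (10.7 to 11.6) where both factors had peaks. Stat5b over Stat5a among those reads was 2.69 (2.67 to 2.72) and 1.70 (1.68 to 1.72). Both summed 2-round ratios kept the order of the 2 kinds of region that all reads gave. The share of regions with a Stat5b to Stat5a interval wholly above 2 did not. With all reads it was 25.9% of Stat5b-alone regions, 5.83% where both factors had peaks and 17.2% of all joined regions. With 25 bp reads alone it was 13.7%, 14.5% and 11.1% in that order. Within the 13 h IgG library 25 bp reads gave the lower level, at 0.663-fold 24 bp reads in Stat5b-alone regions (0.652 to 0.674), 0.579-fold in those of 8 RPM or more and 0.906-fold where both factors had peaks. Within the 13 h Stat5a library the ratios were 1.31, 1.34 and 1.73, with the highest where both factors had peaks. The cause of the read-length difference was not tested.

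The region with the highest Stat5b level was at chr11:3059279-3061882, and was also the widest at 2604 bp. From 8 h to 2 rounds it held 47.0, 51.8 and 55.1 RPM of Stat5b, and 45.0, 43.3 and 44.8 RPM of Stat5a. IgG held 45.3, 40.9 and 33.0 RPM there. All 9 libraries were high, and Stat5b after 2 rounds was 1.67-fold IgG (1.404 to 1.99). Further regions of this kind lay beside it, at chr11:3062026-3063515 with 25.9 RPM of Stat5b and 18.0 RPM of IgG after 2 rounds, and at chr11:3073918-3074764 with 16.2 RPM of Stat5b and 7.78 RPM of IgG. Only 10 of the 16634 regions had 4 RPM or more of 2-round IgG, a limit chosen after the values had been seen, and 3 of those 10 were these.

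Below that region, the next 9 by Stat5b above IgG held a 2-round Stat5b level of 16.2 to 21.4 RPM. The region at chr2:25016574-25019147 had 1.89, 6.86 and 21.4 RPM of Stat5b in the order of the stages. Its Stat5a levels were 7.03, 5.90 and 6.92 RPM and its IgG levels 2.40, 4.65 and 2.76 RPM. Stat5b was 7.75-fold IgG after 2 rounds (4.63 to 13.9), while Stat5a stood between 5.90 and 7.03 RPM at every stage. At 2574 bp it was the next widest after the first, and the region at chr8:36275086-36277584 followed at 2499 bp.

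At chr14:78214770-78216378 Stat5b held 2.04, 5.87 and 18.8 RPM over the 3 stages, Stat5a 4.79, 3.01 and 2.86 RPM, and IgG 2.24, 2.13 and 1.73 RPM. Stat5b was highest after 2 rounds and Stat5a at 8 h. The 2-round ratio of Stat5b to IgG was 10.9 (5.75 to 23.2).

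The region at chr8:108826181-108827880 had the least IgG of the 10. Stat5b held 3.64, 4.43 and 17.1 RPM there, Stat5a 8.63, 4.45 and 2.26 RPM, and IgG 1.28, 1.20 and 0.518 RPM. Stat5b after 2 rounds was 33.0-fold IgG (11.05 to 162), an interval made wide by the few IgG reads, and 3.87-fold Stat5b at 13 h (2.69 to 5.65). Stat5a levels stood in the opposite order over the stages, with the highest at 8 h.

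The other 6 of the 10, at chr12:77287645-77289674, chr18:14825016-14826480, chr6:119444369-119446678, chr8:129479667-129481385, chr8:36275086-36277584 and chr5:120872767-120874500, were also highest in Stat5b after 2 rounds. Ranking by 2-round Stat5b above IgG favoured that order in all 10 regions. Their Stat5b levels were 3.06 to 4.66 RPM at 8 h, 4.09 to 5.64 RPM at 13 h and 16.2 to 19.6 RPM after 2 rounds. The region on chromosome 6 had more IgG (4.32 RPM) than Stat5a (3.91 RPM) after 2 rounds, and the ratio of Stat5a to IgG there was 0.906 (0.503 to 1.64).

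**Figure D4:**
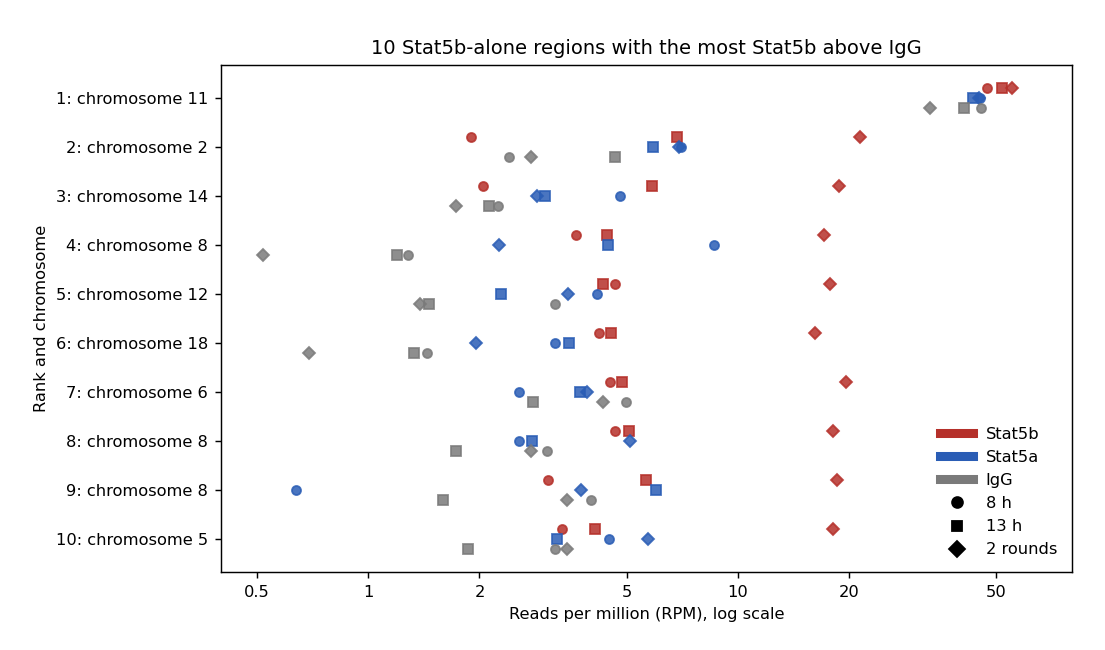
Levels (RPM, log axis) in the 9 libraries at the 10 Stat5b-alone regions with the most 2-round Stat5b above IgG, ranked downwards; colours mark the antibody and shapes the stage, with no replicates and so no error bars. The first region, on chromosome 11, has all 9 libraries between 33.0 and 55.1 RPM, and the other 9 have 2-round Stat5b between 16.2 and 21.4 RPM.

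Some Stat5b-alone regions held many Stat5a reads after 2 rounds, and those with the most Stat5a above IgG, beside the first chromosome 11 region, were wide, at 1018 to 2198 bp. At chr7:28516511-28518675 the levels after 2 rounds were 13.6 RPM for Stat5b, 9.63 RPM for Stat5a and 3.802 RPM for IgG. At chr9:13313658-13314980 they were 10.3, 7.52 and 1.90 RPM in that order, and a region with a peak of another list began 38 bp away. At chr6:83405588-83407785 they were 11.6, 6.02 and 0.864 RPM, with Stat5a 6.97-fold IgG (2.75 to 22.6). At chr11:117961678-117962695 Stat5a held more reads than Stat5b, at 6.62 RPM against 5.75 RPM, but the ratio of Stat5b to Stat5a of 0.868 (0.558 to 1.35) did not separate them. Regions where both factors had peaks had an upper quartile of 4.66 RPM of 2-round Stat5a at a median width of 608 bp, so levels per region are not matched for width here.

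The next regions were chosen for the most Stat5b above IgG at 13 h, again beside the first chromosome 11 region. At chr11:50220139-50222162 Stat5b held 3.49, 8.08 and 14.1 RPM over the stages, and 2 rounds over 13 h was 1.75 (1.29 to 2.38). At chr7:63817057-63819007 Stat5b held 15.1 RPM after 2 rounds and 6.97 RPM at 13 h, and at chr13:48557199-48558849 12.9 RPM after 2 rounds and 6.86 RPM at 13 h. At chr10:118642698-118644049 the levels were 10.2 RPM after 2 rounds and 7.30 RPM at 13 h, and the 2-round to 13 h ratio of 1.39 (0.992 to 1.97) did not separate the stages. Stat5b at 13 h was 3.05-fold to 3.50-fold IgG at these 4 regions, a range that their choice fixed to be high.

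At the other end, the lowest Stat5b-alone region was chr13:30727991-30728361, with 0.784 RPM of Stat5b (6 reads) against 0.903 RPM of Stat5a (6 reads) and 0 reads of IgG after 2 rounds. A region at the median was chr5:122914638-122915165, with 0, 1.44 and 2.87 RPM of Stat5b over the stages and 0.451 RPM of Stat5a and 0.346 RPM of IgG after 2 rounds. Its Stat5b to IgG interval ran from 2.04 to 72.9. A region of average level was thus resolved from IgG only within a broad interval.

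In 771 Stat5b-alone regions (4.64%) some other library had a higher RPM than Stat5b after 2 rounds. Stat5a at 8 h, the shallowest library, was higher in 323 regions, 2-round Stat5a in 302 and Stat5b at 13 h in 131, while 2-round IgG was higher in 0. At the opposite extreme, 96 regions held no Stat5 read at 8 h or 13 h and 22 held no read in any of the other 5 Stat5 libraries. Their median 2-round Stat5b levels were 1.70 RPM (13 reads) and 1.57 RPM (12 reads), below the median of 2.87 RPM over all Stat5b-alone regions. The strongest of the 96 was chr6:145010611-145011071, with 42 Stat5b, 10 Stat5a and 1 IgG reads after 2 rounds. With the 13 h library set at a floor of 3 counts, Stat5b there was 16.5-fold higher after 2 rounds than at 13 h. That value leaves out counting error in the 42 reads. These subsets were picked by values and got no test.

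Heaped reads touched few of the regions. Of the 10 heaped regions the 3 with most reads were chr16:76298657-76299292, chr19:41317080-41317801 and chr15:100055382-100056487, with 8.88, 7.71 and 6.14 RPM of Stat5b after 2 rounds. Leaving the heaped regions out moved no share of called regions by a factor of 1.5.

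The Stat5b-alone regions often lay near other Stat5 regions without overlapping them. The gap to the nearest region of another list had a median of 11.1 kb, with 2478 regions (14.9%) within 1 kb, 7949 (47.8%) within 10 kb and 94.2% within 100 kb. To the nearest region with a peak at 8 h or 13 h the median gap was 14.8 kb for Stat5b-alone regions, 18.2 kb where both factors had 2-round peaks and 18.2 kb for regions with a Stat5a peak alone. The shares within 10 kb of such a region were 41.5%, 36.2% and 37.2% in the same order. To the 3759 regions with peaks at all 3 stages the shares within 10 kb were 12.1%, 12.2% and 12%. The Stat5b-alone share was the highest of the 3 for early regions, a difference that was not tested, and the shares near regions of all stages lay close together.

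Stat5 levels were lower in regions farther from those of other lists, least so for 2-round Stat5b. The rule required a peak of 2-round Stat5b in every region and excluded peaks of the other 5 lists. This contrast between libraries was thus favoured by the choice of regions. Median 2-round Stat5b was 3.004 RPM for 2478 regions under 1 kb from a region of another list, 3.004 RPM for 5471 at 1 to 10 kb, 2.87 RPM for 7723 at 10 to 100 kb and 2.61 RPM for 962 farther away. Median 2-round Stat5a was 1.05, 1.05, 0.903 and 0.752 RPM in the same order, and median 13 h Stat5b 0.885, 0.775, 0.664 and 0.553 RPM. Median Stat5a at 8 h was 0.639 RPM in the first 2 sets and 0.319 RPM in the others. That library is the shallowest, and its medians moved only in coarse steps. Summed and divided by length, Stat5a at 8 h was 1.58, 1.54, 1.39 and 1.17 RPM per kb over the 4 sets. Median 13 h IgG was 0.399 RPM in the first 3 sets and 0.266 RPM in the last, and 2-round IgG was 0.346 RPM in all 4. That 2-round IgG median stood for few reads and moved only in coarse steps. Summed and divided by length, 2-round IgG was 0.975, 1.01, 0.961 and 0.794 RPM per kb in the same order. The same measure was 2.17, 2.18, 1.98 and 1.82 RPM per kb for 2-round Stat5a, so IgG was also lowest in the farthest set. The part of background in these differences was not tested. Joined regions were also ranked by the mean of 2-round Stat5b and Stat5a less 2-round IgG. By 2-round Stat5b level without this subtraction, the highest joined region held 800 RPM. Around the first by the ranking, chr9:107153387-107156833 with 322 RPM of 2-round Stat5b, 9 Stat5b-alone regions lay within 50 kb. The highest of them had 5.35 RPM. Within 50 kb of each of the first 10 regions of that ranking there were 0 to 11 Stat5b-alone regions, the highest at 9.93 RPM.

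At the limit of the rule, the joined regions just inside touched a peak of another list without overlapping it. The region at chr1:108429760-108430084 bordered a 2-round Stat5a peak at a gap of 0 bp and held 2.74 RPM of Stat5b and 0.602 RPM of Stat5a after 2 rounds. The others with a gap of 0 bp were chr10:61882186-61882658, bordering a Stat5a peak of 13 h with 3.13 RPM of 2-round Stat5b, and chr11:44362570-44362820, bordering a Stat5b peak of 13 h with 1.44 RPM. Just outside, chr4:133395692-133396824 shared 1 bp with a 13 h Stat5a peak and held 8.49 RPM of 2-round Stat5b. The regions chr6:127236915-127237588 and chr12:109885506-109886175 shared 2 bp with another peak and held 4.31 and 2.87 RPM. The 611 Stat5b-alone regions with a gap under 100 bp had medians of 2.87 RPM of Stat5b and 0.903 RPM of Stat5a after 2 rounds. The 282 regions left out for an overlap under 100 bp had 4.05 and 1.505 RPM. Regions just outside the rule were counted over the whole joined region, with the other peak in it. Levels on the 2 sides were therefore not taken over like spans.

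Some Stat5b-alone regions lay together. Joining those less than 10 kb apart gave 12640 groups, of which 9855 were single regions, and 6779 regions (40.8%) lay in groups of at least 2. There were 781 groups of at least 3 and 94 of at least 5. The 3 groups with most regions were chr15:66628263-66655464 with 10 regions in 27.2 kb, chr2:35078136-35121865 with 9 regions in 43.7 kb, and chr12:112111412-112148973 with 9 regions in 37.6 kb.

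In the chromosome 15 group the 10 regions held 2.09 to 7.31 RPM of Stat5b after 2 rounds, 44.5 RPM in sum, against 15.2 RPM of Stat5a and 7.26 RPM of IgG. Stat5b at 13 h summed to 15.1 RPM and IgG at 13 h to 7.97 RPM. The highest of them was chr15:66629154-66630114, with 7.31 RPM of Stat5b, 3.61 RPM of Stat5a and 1.21 RPM of IgG. The group also enclosed 1 region with a 13 h Stat5a peak. In the chromosome 2 group the sums after 2 rounds were 28.2 RPM of Stat5b, 9.48 RPM of Stat5a and 3.46 RPM of IgG, with 4 other joined regions inside. In the chromosome 12 group they were 26.3, 9.78 and 4.67 RPM, with none inside. In all 3 groups the Stat5b sum exceeded the Stat5a sum, an order favoured by choosing regions with a Stat5b and no Stat5a peak. No single region passed 7.31 RPM of Stat5b.

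**Figure D5:**
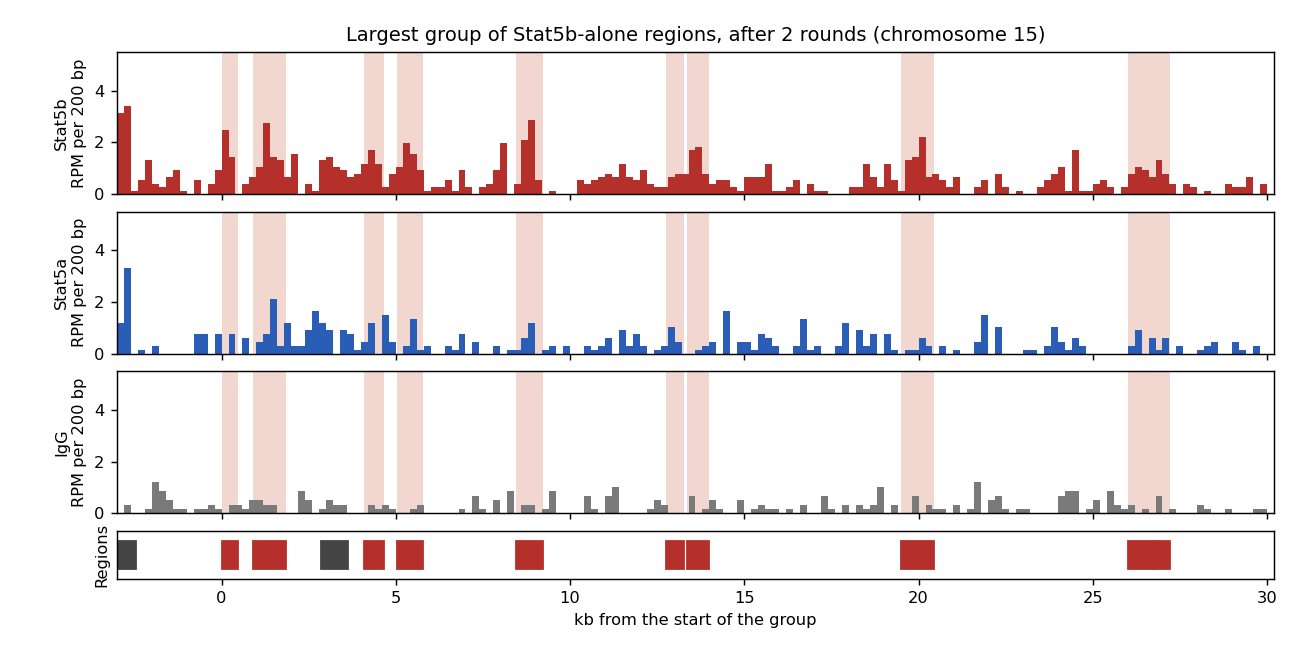
Reads after 2 rounds (RPM per 200 bp, common axis) of Stat5b, Stat5a and IgG across the chromosome 15 group, against kb from its start; pale bands and red blocks mark the 10 Stat5b-alone regions, of which adjoining ones merge, and dark blocks mark regions with peaks of other lists. Stat5b sums to 44.5 RPM over the 10 regions, against 15.2 RPM of Stat5a and 7.26 RPM of IgG.

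Among chromosomes, the share of regions with a 2-round Stat5b peak that had that peak alone was similar on the autosomes, between 49.1% on chromosome 16 and 54.8% on chromosome 18. On the X chromosome it was 60.0% (322 of 537 regions). The Stat5b-alone regions were most dense on chromosome 11, at 11.1 per Mb, against 4.32 per Mb on chromosome 14, the lowest autosome, and 1.95 per Mb on X. This was not particular to them. Regions with peaks of both factors and those with an earlier peak were also most dense on chromosome 11, at 1.76 and 7.92 per Mb. On X those densities were 0.314 and 0.985 per Mb. Per 10000 IgG reads after 2 rounds the Stat5b-alone regions numbered 45.4 on chromosome 11, 21.0 on chromosome 14 and 11.2 on X, so the order was kept when background reads set the scale. Median 2-round Stat5b was 2.35 RPM on X and 2.74 to 3.27 RPM on the autosomes.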

How the data were processed

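The labels give 9 chromatin immunoprecipitation libraries, 1 for each antibody and stage, from 22 lanes. The deposited files list the start and end of each mapped read, and of each peak for the 6 Stat5 libraries, in bp of mm8, per the file names and values; they hold no height, score or p-value. The sources used here do not give the aligner, the peak caller, its threshold or the use of IgG in calling. Read lists, not counts, were deposited, and counts per region were computed here from 5′ ends, with 24 bp reads moved by 1 bp. That offset was clear only in Stat5a at 13 h. Distinct starts in the other libraries with 24 bp reads thus rest on an assumed move. Ratios of RPM carry exact conditional (Clopper-Pearson) 95% intervals, called above 2 or below 0.5. Groups joined regions under 10 kb apart. The highest 200 bp window and profiles in 10 bp steps gave shape. Scripts ran under Python 3.11.15 with scipy 1.17.1, numpy 2.4.6, matplotlib 3.10.9 and pandas 2.3.3. The ratio intervals and calls were tested on simulated Poisson counts, which do not model repeated starts. The counting of reads in regions was not part of that test.

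Named regions were, among regions without heaps, the 10 with most 2-round Stat5b above IgG, the 5 each with most 2-round Stat5a and 13 h Stat5b above IgG, the 3 with most IgG, the 3 widest, the 3 largest groups, the lowest and median, the 3 most read heaped regions and those at the limit of the rule. The regions, lists and rules were chosen with earlier results of these data known; regions without early reads, the limits of level and the read-length sets were chosen after their values were seen. Alternatives were other scaling, distinct starts, 25 bp reads, a 75 bp shift, pooled IgG, other joining and subsets. No mm8 genome or gene annotation was used here, so no gene, motif or sequence is given. Replicates within a stage and any difference between animals were not measured.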

Additional observations from a re-analysis of the deposited data

How the results depend on the processing

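No paired analysis was possible because each group has 1 library. Over 9 results, 33 of 50 alternatives stayed within a factor of 1.5 of the main value and 17 did not. Some of the 33 could not move, or hardly. For Stat5b at 2 rounds over 13 h, 25 bp reads alone were all reads. Leaving out the 10 heaped regions could hardly shift a share of 16634. Counting every start and strand only once, the share of Stat5b-alone regions called above 2 was 27.6% for 2-round Stat5b over IgG (52.2% with all reads), 0.138% for 2-round Stat5a over IgG (3.47%), 0.337% for 13 h Stat5b over IgG (3.47%), 19.9% for Stat5b at 2 rounds over 13 h (38.0%), 9.07% for Stat5b over Stat5a (25.9%) and 0.0301% for IgG at 2 rounds over 13 h (0.433%). Over all joined regions the same counting gave 32.1%, 6.51%, 9.06%, 14.8%, 7.03% and 0.0594% in that order. With 25 bp reads alone the Stat5b-alone shares were 4.17%, 0.337% and 1.86% for the 3 ratios over IgG in that order. They were 13.7% for Stat5b over Stat5a and 1.64% for IgG over IgG. Over all joined regions 25 bp reads gave 12.1%, 3.74%, 11.7%, 11.1% and 1.84% in the same order. Both settings leave fewer reads, while pooled IgG has more. With IgG pooled over stages the Stat5b-alone shares over IgG were 85.9%, 13.2% and 6.50%, without a share over all joined regions to set beside them. In the upper 50% of regions by Stat5b level, IgG over IgG gave 0.721%. By an alternative chosen after seeing the data, the Stat5a to IgG ratio at 16 RPM and over was 1.53 without the 3 regions richest in IgG (1.27 with them). Requiring Stat5b over IgG above 2 left 8681 of 16634 regions, and a distance of 50 kb in place of 10 kb held 84.6% in place of 47.8%. Joining peaks at gaps up to 500 bp gave 14028 regions and an overlap of 50% of the shorter peak 17786. A median of 2 IgG reads and 6 Stat5a reads after 2 rounds limits what a single region can show.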
